A study of Mus musculus with 2 samples.

Results

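The genes of the mouse major histocompatibility complex (MHC) carry names that begin with H2-. Of the 21938 protein-coding genes that GENCODE annotates on chromosomes 1 to 19, X and Y, 34 have such a name and lie on chromosome 17, and these 34 genes were all taken, whatever their signal. Chromatin accessibility was measured by ATAC-seq, a method that uses the transposase Tn5 to cut open DNA and tag the cut ends, in EHMT2-dTAG-mcherry mESCs, a mouse embryonic stem cell (ESC) line of the strain BL6/129 hybrid. The endogenous EHMT2, a histone methyltransferase, carries in these cells a tag through which it can be degraded, and is followed by mCherry. All cells received the vehicle DMSO alone for 24 h, so EHMT2 was present throughout, and there is no second condition. Cells of 2 independent clones were used, with 50000 cells each, grown with FBS and LIF; the study's methods name a layer of mitomycin C-treated embryonic fibroblasts as feeders. The deposited list of 116782 peaks was called on both clones merged, so no value below has a spread between replicates, and the totals of the libraries were not analysed here.

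MHC class I molecules show peptides from inside the cell to CD8+ T cells, and consist of a heavy chain, a peptide and the light chain B2m. H2-K1 and H2-D1 encode the classical, highly polymorphic heavy chains, while the Q, T and M series encode non-classical (class Ib) heavy chains, some of which bind other ligands or no peptide. MHC class II molecules are pairs of an α and a β chain (H2-Aa with H2-Ab1, and the H2-Eb genes with H2-Ea) that show peptides from endosomes to CD4+ T cells. They are loaded with the help of the H2-DM and H2-O proteins and are made mainly by B cells, dendritic cells and macrophages. ESCs are known for very low levels of class I at the cell surface.

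The 5′ end of a gene in GENCODE is called its start below, and a peak that reached within 500 bp of it in either direction was taken as a start peak. By this rule 16 of the 34 H2- genes had a start peak, against 64.3% of all 21938 protein-coding genes. The start peaks of the H2- genes were also small. Fold enrichment, the ratio computed with MACS2 of the fragments over the peak's summit plus 1 to the local background plus 1, had a median of 5.04 over the 16 peaks and of 8.43 over the 14106 start peaks of all genes, whose quartiles were 5.86 and 11.4. The number of fragments over the summit, which can be calculated back from both deposited values, had a median of 12.5 at H2- genes, with a range of 7 to 53, and of 32 at all genes. Only H2-DMa and H2-M3 had a start peak with a −log10 q-value of at least 10, so 2 of 34 members passed this stricter limit, against 47.1% of all genes. In cells measured in bulk, few fragments can come from DNA that is open in few cells or from DNA that is open for little of the time in many, and these cannot be told apart.

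**Figure D1:**
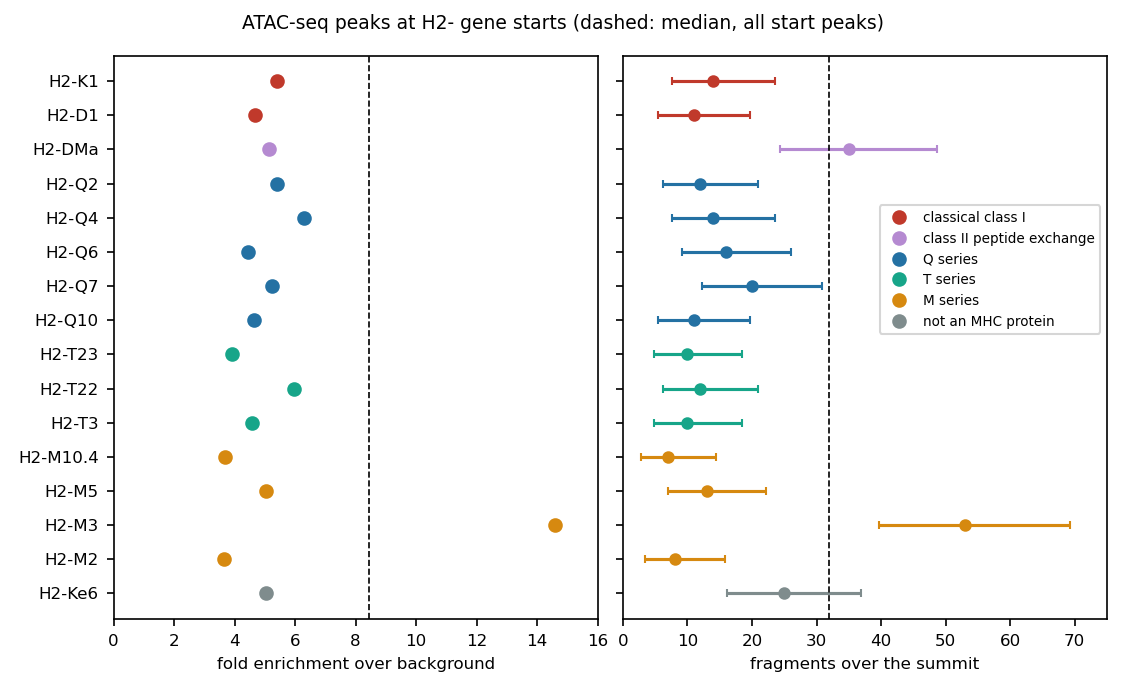
Fold enrichment (left axis in fold over local background) and fragments over the summit (right, with exact Poisson 95% intervals that cover counting error only) of the 16 start peaks of H2- genes, coloured by class. The dashed lines are the medians over all 14106 start peaks, 8.43-fold and 32 fragments, and H2-M3 is the only member above the first.

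The antigen-presenting genes in the narrow sense, the classical class I heavy chains and the class II chains, split by class. Both classical class I genes had a start peak and none of the 4 class II chain genes did, which gives 2 of 6. Of the 28 other H2- genes, 14 had one. The order of the shares depends on the definition, since with the class Ib genes that present antigen counted in (H2-M3, H2-T23, H2-Q4, H2-Q6, H2-Q7 and H2-Q10) the counts were 8 of 12 antigen-presenting and 8 of 22 other genes. By the narrow definition, the median fold enrichment was 5.04 both for the 2 and for the 14 peaks. With 1 more gene among the 6 the shares would be equal, and H2-Ab1 is such a gene, since it had a peak at the start that RefSeq gives it. Grouped by series, start peaks were found at 5 of 6 genes of the Q series, 3 of 4 of the T series, 4 of 12 of the M series and 1 of 5 genes of class II peptide exchange, as well as at H2-Ke6, a hydroxysteroid dehydrogenase gene that has the name but makes no MHC protein. Classical, Q and T genes together had start peaks at 10 of 12, with a median fold enrichment of 4.97 and 10 to 20 fragments each, and at none of the 12 did the −log10 q-value reach 10.

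**Figure D2:**
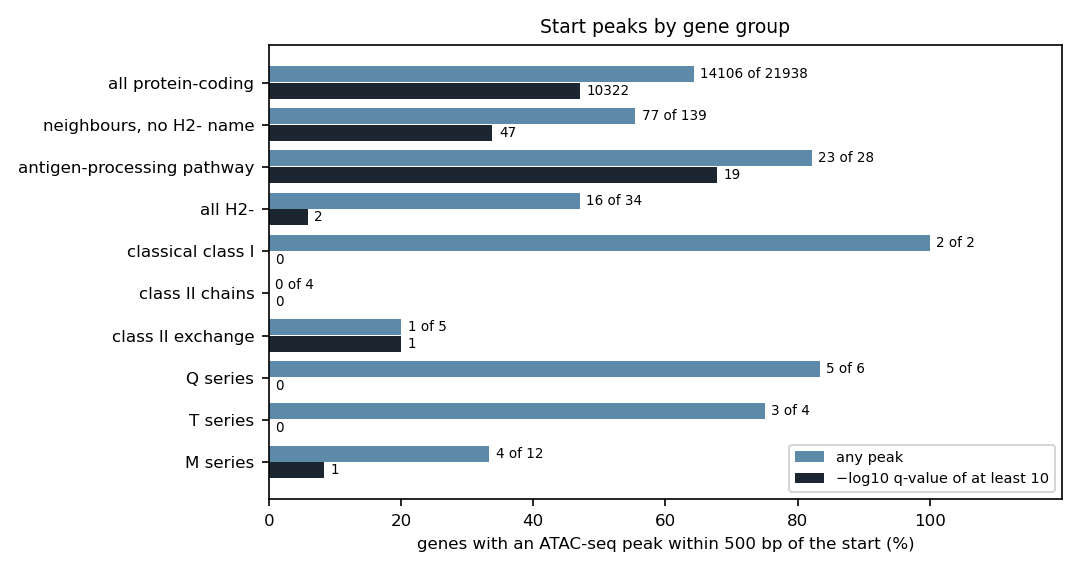
Percent of genes with a start peak (light bars) and with one of a −log10 q-value of at least 10 (dark bars), for all protein-coding genes, their subsets and the classes of H2- genes, with the number of genes beside each bar. Classical, Q and T genes have bars of 75% or more for any peak and none for the stricter limit.

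At H2-K1 the peak spanned 1718 bp (chr17:33998983-34000700) and had its summit 48 bp downstream of the start, in the untranslated part of exon 1. It had a fold enrichment of 5.40 and 14 fragments over the summit, with a Poisson interval of 7.65 to 23.5 around them, over a background of 1.78. At H2-D1 the peak had a fold enrichment of 4.69 with 11 fragments (5.49 to 19.7), and its summit lay 365 bp downstream of the GENCODE start but 1 bp from the start in RefSeq. The intervals of both genes overlap, and with 14 and 11 fragments a modest difference between the 2 classical genes could not be seen. Their fold enrichments exceeded those of 20.5% (H2-K1) and 14.3% (H2-D1) of all start peaks.

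The promoters of both genes, from 250 bases before to 50 bases after the RefSeq start, are shown because they carry the letters by which class I promoters are known. Capitals mark matches to GGGGATTCC (the NF-kB site of enhancer A), TGACG (the X2 box), ATTGG (the Y box), GAAANNGAA (the core of an interferon-stimulated response element) and GGGCGG (a GC box), searched on both strands, where a match on the other strand reads CCAAT for the Y box. The sequences are those of RefSeq on GRCm38.p6, 5′ to 3′ on the gene's strand.
H2-K1, chr17:34000298-34000597, minus strand: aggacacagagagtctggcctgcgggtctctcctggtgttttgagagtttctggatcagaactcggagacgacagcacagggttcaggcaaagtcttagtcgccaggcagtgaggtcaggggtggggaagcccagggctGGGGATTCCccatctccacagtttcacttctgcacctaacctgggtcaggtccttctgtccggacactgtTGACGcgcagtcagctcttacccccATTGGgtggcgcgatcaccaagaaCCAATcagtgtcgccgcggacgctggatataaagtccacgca
H2-D1, chr17:35262844-35263143, plus strand: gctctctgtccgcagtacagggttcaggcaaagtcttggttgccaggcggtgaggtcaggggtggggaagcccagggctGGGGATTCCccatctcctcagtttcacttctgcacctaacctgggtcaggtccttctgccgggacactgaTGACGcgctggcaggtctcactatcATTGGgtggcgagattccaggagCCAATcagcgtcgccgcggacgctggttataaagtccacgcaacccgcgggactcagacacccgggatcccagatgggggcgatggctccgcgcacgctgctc
In both promoters GGGGATTCC comes first, then TGACG, then ATTGG and last the inverse of ATTGG. Neither holds an exact match to GAAANNGAA. Both hold tttcacttc between GGGGATTCC and TGACG, letters that were not searched for. The search misses any interferon-stimulated response element written with other letters, so it cannot show that these promoters lack one. GGGGATTCC occurs in 0.250% of the 32851 RefSeq promoters, and in 4 of the 10 classical, Q and T genes with a promoter sequence, which besides these 2 are H2-Q6 and H2-Q7. ATTGG occurs in 37.4% of all promoters and TGACG in 20.8%, so a single match to either is common. GAAANNGAA, found in 8.56% of all promoters, occurs in 2 of the same 10 genes, H2-T23 and H2-T22, and GGGCGG, found in 35.7%, occurs in 1, H2-T22. A promoter sequence was found for 31 of the 34 members. H2-Ab1, H2-Q1 and H2-T24 had none in the table used.

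The largest start peak of the 34 genes belonged to H2-M3, a class Ib heavy chain that presents peptides with an N-formyl group, as bacteria and mitochondria make them. Its fold enrichment was 14.6, with 53 fragments (39.7 to 69.3) and its −log10 q-value was 45.5. The summit lay close downstream of the start in coding exon 1, and the peak (chr17:37270145-37271157) was 1013 bp wide, close to the median of 1045 bp for all start peaks. The fold enrichment was above that of 91.4% of all start peaks and the fragment number above that of 74.3%. The Poisson interval of H2-M3 lies above those of all other start peaks of H2- genes but that of H2-DMa, whose interval reached 48.7. The promoter of H2-M3, chosen for display after its value was seen, has no GGGGATTCC but holds the same TGACG and ATTGG letters.
H2-M3, chr17:37269984-37270283, plus strand: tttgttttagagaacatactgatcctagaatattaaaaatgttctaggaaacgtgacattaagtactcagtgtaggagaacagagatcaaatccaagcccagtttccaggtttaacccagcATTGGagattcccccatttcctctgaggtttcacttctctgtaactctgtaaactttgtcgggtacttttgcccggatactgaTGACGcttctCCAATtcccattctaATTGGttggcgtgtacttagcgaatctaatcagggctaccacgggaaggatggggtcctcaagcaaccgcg
From the first base of TGACG to the first base of ATTGG there are 25 bases in H2-K1, H2-D1 and H2-M3 alike, 24 in H2-Q7 and 26 in H2-Aa. A TGACG followed on the same strand by an ATTGG that begins 24 to 26 bases later was found in 38 of the 32851 promoters (0.116%) and at 5 of the 31 H2- genes. This spacing was chosen after the sequences had been seen, and related genes are not independent of each other. Of the 5, the 4 class I genes had a start peak and H2-Aa had none, against 64.3% of all genes. Of the classical, Q and T genes, 10 of 12 had one, whatever their spacing. The share with a start peak among the 38 promoters was not computed.

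The class II chains had no start peak. At H2-Aa, the α chain of I-A, the nearest summit lay 11829 bp from the start, at H2-Eb1 6215 bp and at H2-Eb2 26013 bp, and none of these 3 genes had a peak anywhere over its body. The list holds no peak with fewer than 6 fragments, so a gene without a peak may still have had a few. The promoters of these 3 genes are shown beside those of class I, with the same letters in capitals.
H2-Aa, chr17:34287774-34288073, minus strand: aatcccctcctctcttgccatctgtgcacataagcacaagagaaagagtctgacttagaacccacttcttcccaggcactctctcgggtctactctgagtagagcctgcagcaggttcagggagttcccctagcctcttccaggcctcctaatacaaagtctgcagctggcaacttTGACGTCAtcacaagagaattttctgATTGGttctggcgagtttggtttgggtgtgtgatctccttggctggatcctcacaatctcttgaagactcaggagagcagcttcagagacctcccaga
H2-Eb1, chr17:34305617-34305916, plus strand: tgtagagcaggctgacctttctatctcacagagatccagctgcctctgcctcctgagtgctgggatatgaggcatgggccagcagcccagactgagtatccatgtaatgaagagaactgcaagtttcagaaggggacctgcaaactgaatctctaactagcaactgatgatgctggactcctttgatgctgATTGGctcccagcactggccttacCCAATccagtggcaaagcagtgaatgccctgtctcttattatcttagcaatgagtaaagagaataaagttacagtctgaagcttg
H2-Eb2, chr17:34325425-34325724, plus strand: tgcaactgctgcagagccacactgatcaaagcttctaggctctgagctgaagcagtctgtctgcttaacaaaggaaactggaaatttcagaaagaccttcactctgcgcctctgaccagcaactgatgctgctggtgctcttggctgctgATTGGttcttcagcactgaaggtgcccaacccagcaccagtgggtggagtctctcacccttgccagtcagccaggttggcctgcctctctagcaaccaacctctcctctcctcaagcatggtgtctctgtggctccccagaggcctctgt
H2-Aa holds TGACG on both strands, overlapping as TGACGTCA, 26 bases before ATTGG, and H2-Eb1 and H2-Eb2 hold ATTGG without TGACG. Of the 8 class II chain and exchange genes with a promoter sequence, 8 hold ATTGG in at least 1 of their RefSeq promoters and 1 holds TGACG, and none holds GGGGATTCC, GAAANNGAA or GGGCGG. H2-DMa holds ATTGG only at its RefSeq start at 34125518, not at that at 34122832. The summit of its peak of highest fold enrichment, 8.70, lay 10113 bp downstream of the former.

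H2-Ab1, the β chain of I-A, was the exception among class II chains. It had no peak within 500 bp of its GENCODE start at 34257689, but a peak of 308 bp (chr17:34263122-34263429) lay 67 bp downstream of its RefSeq start at 34263227 and 33 bp downstream of another GENCODE transcript start. Its fold enrichment was 6.80, with 16 fragments (9.15 to 25.98) over a background of 1.50, and the −log10 q-value was 9.59. That value is higher than those of H2-K1, at 6.65, and H2-D1, at 4.68, although the intervals of the fragment numbers overlap. A smaller peak with a fold enrichment of 3.52 and 8 fragments lay 2061 bp downstream of the RefSeq start. With the start of any GENCODE transcript, or with the RefSeq start, 3 of the 6 antigen-presenting genes and 17 of the 34 members had a start peak, against 70.0% of all genes by either rule.

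Among the genes of class II peptide exchange, H2-DMa, the α chain of H2-DM, had a start peak with a fold enrichment of 5.13 and 35 fragments (24.4 to 48.7) on a background of 6.02, the highest background of the 16 peaks. The GENCODE start of H2-DMa lies within the body of Brd2, a chromatin reader gene on the opposite strand. Here peaks are close together, with further ones 1517 bp downstream (fold enrichment 2.88) and 2911 bp downstream (3.77), the latter 182 bp inside Brd2 from its own start. A peak with a fold enrichment of 8.70 and 23 fragments (14.6 to 34.5) lay 16090 bp downstream, 3 bp from the start of a coding transcript of H2-DMa. To which gene the first 3 peaks belong cannot be told from their position. H2-DMb1 and H2-DMb2, the β chains of H2-DM, and H2-Ob had no peak at the start or over the body, and H2-Oa had 1 peak of 7 fragments in an intron, 1374 bp downstream.

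**Figure D3:**
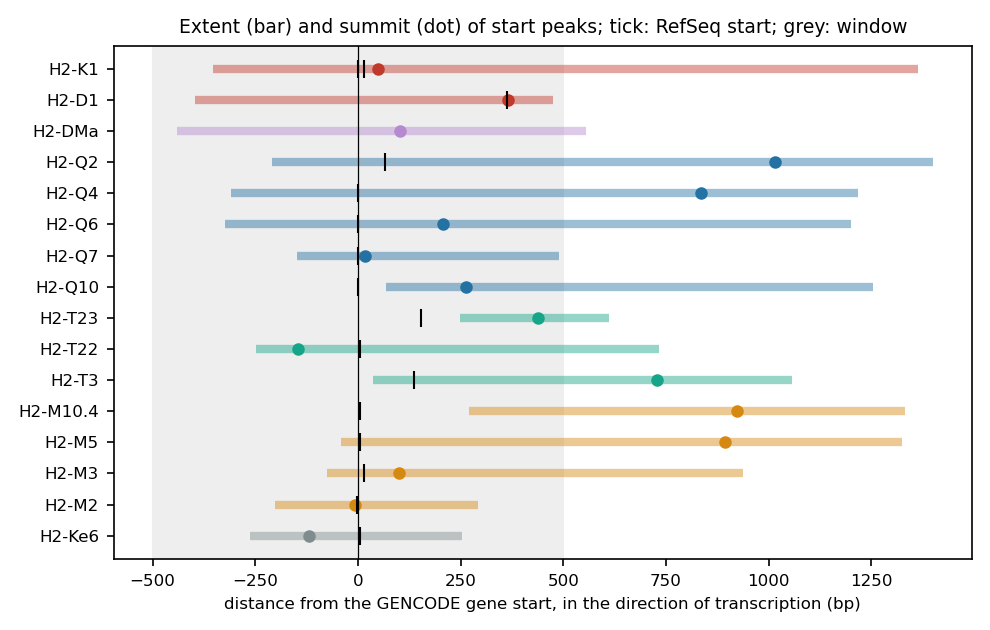
Extent (bars) and summit (dots) of the 16 start peaks relative to the GENCODE start, in bp in the direction of transcription, with RefSeq starts as ticks and the 500 bp window in grey. The summits of H2-Q2, H2-Q4, H2-M10.4, H2-M5 and H2-T3 lie outside the window, 728 to 1015 bp downstream, and that of H2-D1 falls on its RefSeq start. The RefSeq starts of H2-DMa lie outside the plot.

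Genes of the Q series encode class Ib heavy chains such as the Qa-2 antigen (H2-Q7) and a secreted heavy chain of the liver (H2-Q10). Start peaks were found at H2-Q2, H2-Q4, H2-Q6, H2-Q7 and H2-Q10, and H2-Q1 had no peak within 8205 bp. Fold enrichment ranged from 4.45 at H2-Q6 to 6.30 at H2-Q4, and fragments from 11 at H2-Q10 to 20 at H2-Q7. The 5 Poisson intervals overlap. At H2-Q7 the summit lay 18 bp downstream of the start, and a second peak in the body, 1150 bp downstream, had a fold enrichment of 3.49. The peak of H2-Q4 also covers the start of the antisense gene Gm11131, 675 bp downstream.

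In the T series, H2-T23, the heavy chain of Qa-1, had a start peak with a fold enrichment of 3.90 and 10 fragments, and a larger peak 1058 bp downstream with a fold enrichment of 5.36 and 14 fragments. H2-T22, a ligand of γδ T cell receptors, had a fold enrichment of 5.96 with 12 fragments. Its summit lay 146 bp upstream, and the same peak covers the start of Gm6034, a protein-coding gene on the opposite strand whose start lies 214 bp away. The peak of H2-T3, the thymus leukaemia antigen, had a fold enrichment of 4.58 with 10 fragments. H2-T24 had no start peak, and a peak of 6 fragments in its body 8082 bp downstream.

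In the M series, the 9 genes of the stretch from H2-M10.2 to H2-M10.6, which are the H2-M10 genes with H2-M11, H2-M9 and H2-M1 and are known from sensory neurons of the vomeronasal organ, had 1 start peak among them. This was at H2-M10.4, with 7 fragments (2.81 to 14.4), a fold enrichment of 3.70 and its summit 922 bp downstream in coding exon 3. H2-M10.1, H2-M10.2, H2-M10.3, H2-M10.5, H2-M10.6, H2-M11, H2-M9 and H2-M1 had no peak at the start or in the body. The 3 genes at the other end of the series, H2-M5, H2-M3 and H2-M2, all had one. The peak of H2-M5 had a fold enrichment of 5.04 and 13 fragments, and that of H2-M2 a fold enrichment of 3.66 and 8 fragments with its summit 7 bp upstream of the start. H2-M2 and H2-M10.4 had the lowest fold enrichments of the 16 peaks, above those of 5.86% and 6.14% of all start peaks.

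Several class I peaks were centred inside the genes rather than at the 5′ ends of the gene records. Of the 16 start peaks, 8 had a summit more than 250 bp downstream of the start, against 17.2% of all start peaks. H2-D1 is among these 8, although its summit lies 1 bp from its RefSeq start. In 5 of the 8, at H2-Q2, H2-Q4, H2-T23, H2-M10.4 and H2-M5, the summit lay in coding exon 2 or 3, the exons that encode the α1 and α2 domains of the peptide-binding groove. Other GENCODE transcripts start nearer to 2 of these summits, 125 bp upstream of that of H2-T23 and 402 bp upstream of that of H2-M5. At H2-Q4, H2-M10.4 and H2-Q2 the nearest transcript start lay 836, 917 and 1015 bp upstream. Over the other 645 start peaks of chromosome 17, 4 summits lay in a coding exon from the second on. The DNA at these summits was rich in CpG, with ratios of observed to expected CpG in the 201 bp around the summit of 0.792 at H2-Q2, 1.01 at H2-Q4, 0.930 at H2-T23 and 0.773 at H2-M5. In the 201 bp around the starts of the same genes, the ratios were 0.186, 0.782, 0.253 and 0.330. At H2-M10.4 the ratio was low at both places, at 0.332 and 0.323.

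Base composition at the start moved with the presence of a peak. In the window of 500 bp on each side of the start, the median ratio of observed to expected CpG was 0.228 over the 34 members and 0.552 over all genes. It was 0.564 over the 16 members with a start peak and 0.164 over the 18 without. A window was called CpG-rich at a G + C content of at least 50% and a ratio of at least 0.6. The 8 CpG-rich members (H2-K1, H2-Ke6, H2-DMa, H2-Q2, H2-Q4, H2-Q6, H2-Q7 and H2-Q10) all had a start peak, as did 97.4% of the 9738 CpG-rich starts of all genes. Of the 26 other members, 8 had one, against 37.9% of 12200 starts. H2-D1, at a ratio of 0.522, and H2-M3, at 0.494, were among these 8. The class II chains had ratios of 0.131 to 0.247, and the genes from H2-M10.2 to H2-M10.6 had no ratio above 0.227. CpG-rich windows made up 8 of the 34 members and 44.4% of all genes. The fold enrichments of the 8 CpG-rich members ran from 4.45 (H2-Q6) to 6.30 (H2-Q4), below the median of 8.43 over all start peaks. H2-M3, the largest start peak at 14.6, was not CpG-rich. Whether base composition bears on the share or the size of the start peaks was not tested.

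**Figure D4:**
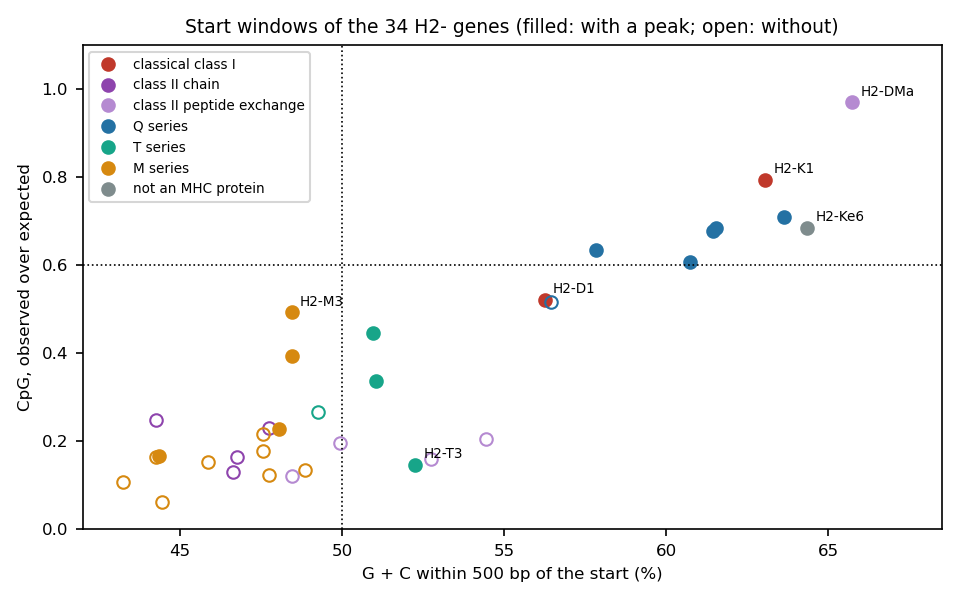
G + C content (percent, horizontal axis) against the ratio of observed to expected CpG (vertical axis) in the window of 500 bp on each side of the starts of the 34 H2- genes, with filled symbols for genes with a start peak and dotted lines at the limits of a CpG-rich window. All 8 genes in the upper right field are filled, and 8 of the other 26 are, among them H2-M3 and H2-D1.

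The H2- genes arose by duplication, and reads that match several copies equally well were written by the authors at 1 of these places, with ties at random, so the fragments of near-identical copies cannot be told apart. The 201 bp around each summit were therefore searched in the genome. H2-K1, H2-D1, H2-DMa, H2-Q2, H2-Q10, H2-T3, H2-M10.4, H2-M5, H2-M3, H2-M2 and H2-Ke6 had no second match of at least 90% identity, so no near-identical copy was found for the sequence at these summits. The summits of H2-Q6 and H2-Q7 each had 2 such matches, with identical runs of 180 bases (H2-Q6) and 115 bases (H2-Q7) shared with the pseudogene H2-Q5, longer than the reads of 100 bp. The summit of H2-Q4 had 5 matches and a longest identical run of 62 bases with H2-D1, that of H2-T22 had 1 match with a run of 72 bases in the pseudogene H2-T10, and the start peak of H2-T23 had 11 with a run of 73 bases. The second peak of H2-Q7 had 13 matches and that in H2-T24 1725, the latter inside a repeat. The values of these peaks are uncertain to that extent.

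Along the chromosome the 34 genes span 3.49 Mb with 276 peaks. In the 531 kb from H2-M10.2 to H2-M10.6, which hold no other protein-coding gene, there were 11 peaks, or 2.07 per 100 kb, against 5.16 on chromosome 17. The densities were 11.9 per 100 kb from H2-T24 to H2-T3, 8.97 from H2-D1 to H2-Q10, 6.02 from H2-Oa to H2-Eb2 and 6.61 from H2-M5 to H2-M2. In the stretch from H2-D1 to H2-Q10, all 7 genes of which are H2- genes, none of the 19 peaks reached a −log10 q-value of 10, and the highest fold enrichment was 6.96. On the whole of chromosome 17, 1076 of 4739 peaks reached it.

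**Figure D5:**
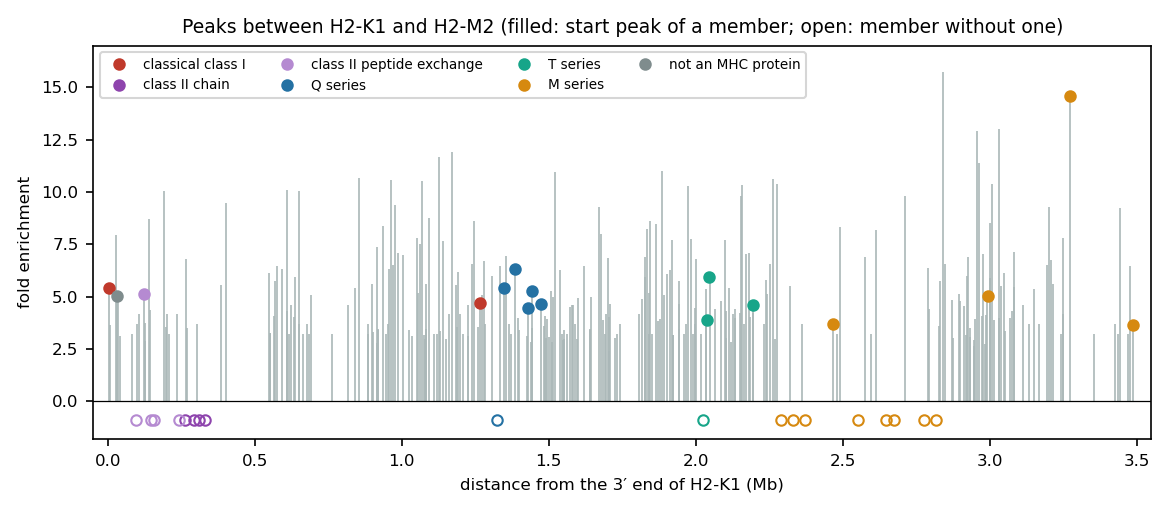
Fold enrichment (vertical axis) of the 276 peaks between H2-K1 and H2-M2 as grey lines, by the distance of their summits from the 3′ end of H2-K1 in Mb, with start peaks of H2- genes as filled symbols and members without one as open symbols under the axis. The open symbols gather among the class II genes and from H2-M10.2 to H2-M10.6, and H2-M3 stands at 14.6.

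For comparison, the genes of other kinds in the same span were counted by the same rule. Of the 139 neighbouring protein-coding genes without an H2- name, 77 had a start peak, with a median fold enrichment of 7.64 and 26 fragments, and 47 reached the stricter limit. The 19 olfactory receptor genes among them had none. Without these, a rule added after the values had been seen, the count was 77 of 120, or 64.2%, against 64.3% of all genes. Ehmt2 itself, which carries the tag and lies in this span, had a start peak with a fold enrichment of 3.33 and 13 fragments.

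The genes that supply and regulate the class I and class II pathways were counted by the same rule. Of 29 listed genes of antigen processing and its regulation, 28 were found in the annotation (Ifi30 was not matched), and 23 of these had a start peak, against 64.3% of all genes. Their median fold enrichment was 8.70, close to the 8.43 of all start peaks, with 38 fragments. The stricter limit was reached by 19, against 47.1% of all genes. With the start of any GENCODE transcript 26 of the 28 had a peak, and with RefSeq starts 24, against 70.0% of all genes by either rule. These 2 recounts were not split by gene, so a gene without a start peak below may have one at another start. B2m, the light chain of every class I molecule, had a fold enrichment of 11.6 with 38 fragments (26.9 to 52.2), an interval above those of H2-K1 and H2-D1. Tap1, a subunit of the peptide transporter, and Psmb9, a subunit of the immunoproteasome, share 1 peak at their starts, which lie on opposite strands, with a fold enrichment of 10.1 and 32 fragments. Psmb8, another subunit of the immunoproteasome, had 8 fragments and a fold enrichment of 4.16. Tap2, the partner of Tap1, had no start peak but 1 peak over its body. Tapbp, the tapasin that joins class I to the transporter, had a fold enrichment of 8.70.

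Among the regulators, Rfx5, which binds the X box of both classes, had a fold enrichment of 12.8 with 49 fragments. Nlrc5, the transactivator of class I genes, had one of 6.25 with 16 fragments (9.15 to 25.98). Ciita, the transactivator of class II genes, had no start peak but 2 peaks over its body. Cd74, the invariant chain of class II, had a start peak with a fold enrichment of 3.60 and 8 fragments.

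The cell types that the sample could hold were checked by the same rule. Of 8 markers of ESCs 7 had a start peak, all but Esrrb, with 17 to 151 fragments. Of 12 markers of fibroblasts, the cells of the feeder layer, 7 had one (58.3%, against 64.3% of all genes), with 11 to 28 fragments, and Col1a2 and Twist1 reached the stricter limit, against 47.1% of all genes. None of 6 markers of blood cells that present antigen had one. With the start of any GENCODE transcript, 8 of 8 ESC, 9 of 12 fibroblast and 2 of 6 blood markers had a peak. With RefSeq starts the counts were 8, 8 and 1, against 70.0% of all genes by either rule. The start peaks of classical, Q and T genes, with 10 to 20 fragments, overlap in this with those of the fibroblast markers. They also overlap with the lowest of the ESC markers, Pou5f1, at 17 fragments and a fold enrichment of 2.83. The range does not separate the 2 cell types, and the part of feeder cells in the class I peaks was not tested.

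Over the gene bodies, 25 distinct peaks touched 19 of the 34 members, against 78.1% of all genes, whose median length of 17425 bp exceeds the 4570 bp of the members. Per 10 kb of gene body, the median number of peaks was 1.73 for the members and 0.673 for all genes, start peaks included. A single peak counts for more in a short gene, as at H2-D1, whose start peak alone gave 2.10 over 4770 bp. The density without start peaks was not computed. Peaks away from the start numbered 9, in H2-Oa, H2-DMa, H2-Ab1, H2-Q7, H2-T24 and H2-T23. The remaining 15 members, among them 3 of the 4 class II chains, had no peak at the start or over the body.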

How the data were processed

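ATAC-seq of 2 clones of EHMT2-dTAG-mcherry mESCs was processed by the authors. They merged technical replicates, trimmed adapters, aligned paired reads to mm10 with STAR 2.7.10, removed duplicates with Picard 2.26.0 and reads in High Signal Regions with SAMtools 1.14, shifted fragments for Tn5 and called peaks with MACS2 2.2.6 on both clones merged. The deposited fold enrichment is a ratio, the deposited −log10 p-values and q-values belong to the summit, and the deposited score, 10 times the −log10 p-value rounded down, was not used. The lowest −log10 q-value was 1.30, the limit of 0.05.

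Fragment numbers were calculated from fold enrichment and p-value with the MACS2 formulas and came out whole, within a relative tolerance of 0.0001, for 116778 peaks. On 4827 simulated peaks 100% were recovered. Exact Poisson 95% intervals cover counting error only. Genes came from GENCODE vM21, RefSeq starts and promoters from GRCm38.p6. The peak of highest fold enrichment represented a start. Sequence matches needed 50% of the 201 bp (BLAST 2.17.0). Python 3.11.15, pandas 2.3.3 and SciPy 1.17.1 were used.

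The members, the gene lists and the named genes (all members, 10 pathway genes, Ehmt2, genes sharing a start peak, and promoters of antigen-presenting genes) were chosen with earlier results of these data known. No test was made, since there is 1 list of 1 condition. The alternatives were stricter q-values, windows of 250 bp and 1000 bp, summits in the window, other starts and a broad definition of antigen presentation.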

Additional observations from a re-analysis of the deposited data

Results flagged for a closer look

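Beside the protein-coding genes, 11 pseudogenes with H2- names lie on chromosome 17, which the comparisons above did not use, and 7 of them had a peak at the start, by the same rule of 500 bp. These were H2-K2, H2-Q3, H2-Q5, H2-Bl, H2-T-ps, H2-T10 and H2-M6-ps. Over all 13523 annotated pseudogenes, of every type, 9.47% had one. The 11 are annotated as unprocessed, transcribed unprocessed or polymorphic, and the share over these types alone was not computed. Fold enrichment ranged from 3.39 at H2-Q5 to 5.44 at H2-T-ps and fragments from 7 to 23, and none reached a −log10 q-value of 10. H2-M6-ps had the most fragments (23, with a Poisson interval of 14.6 to 34.5), and its summit lay 912 bp downstream. H2-Q5, H2-T10, H2-T-ps and H2-K2 are among the closest matches to the summits of class I genes, and the part of reads shared between copies was not tested.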

How the results depend on the processing

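Of the 40 other values computed for the 7 counts and medians, 30 stayed within 1.5 times the reported value. Under the stricter limit, a −log10 q-value of 10, start peaks remained at 2 of the 34 H2- genes, 0 of the 6 antigen-presenting and 2 of the 28 other H2- genes, and at 47 neighbouring genes, the median fold enrichment of the H2- start peaks went from 5.04 to 9.86, and 2 H2- genes had a body peak, since this limit keeps the largest peaks alone. With the summit required in the window, 9 of the other H2- genes had a start peak. With class Ib genes that present antigen (H2-M3, H2-T23, H2-Q4, H2-Q6, H2-Q7 and H2-Q10) counted as antigen-presenting, the counts were 8 of 12 and 8 of 22. Leaving out peaks at the start, 6 H2- genes had a body peak. RefSeq starts and the count without olfactory receptor genes were added after seeing the data. No paired analysis was possible because the list used here holds 1 value for both clones, and for the same reason no replicate was left out. Most H2- start peaks rest on fewer than 20 fragments, which makes their counting intervals wide.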
